A study of Homo sapiens with 6 samples.

Results

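The 10 genes described here encode the cap'n'collar (CNC) transcription factors NFE2L2 (the gene of NRF2), NFE2L1, NFE2L3 and NFE2, the NRF2 inhibitor KEAP1, the related repressors BACH1 and BACH2, and the small MAF proteins MAFF, MAFG and MAFK. They were taken from a table of 58884 genes by symbol, and each of the 10 symbols stood on 1 row. RNA-seq was available for KYSE70, an established line of human esophageal squamous carcinoma (ESCC) with a mutant NFE2L2 gene, and for NRF2null-KYSE70, derived from it by CRISPR-Cas9 editing of NFE2L2. Each line had 3 libraries of untreated cells grown in RPMI1640 with fetal bovine serum. NRF2null-KYSE70 was grown from 1 edited cell, so its libraries carry no information on the spread between clones, and p-values measure the spread between libraries, which may be technical. Any other difference of this clone from its parental line cannot be told apart from the effect of the NFE2L2 edit. The authors report a faint, smaller NRF2 band in this line and state that its NRF2 was not fully removed.

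In unstressed cells KEAP1 holds NRF2 to a CUL3 ubiquitin ligase, and NRF2 is degraded as fast as it is made. When KEAP1 is modified by oxidants or electrophiles, or when NRF2 carries a mutation in the part that KEAP1 grips, NRF2 accumulates, pairs with a small MAF protein and binds antioxidant response elements in genes for glutathione, NADPH and detoxification enzymes. The small MAF proteins have a DNA-binding and pairing region but no activating region, and they are shared by NRF2, NFE2L1, NFE2L3, NFE2, BACH1 and BACH2. With BACH1, which leaves DNA when it binds heme, the same elements are repressed. NRF2 mutations that escape KEAP1 are frequent in squamous cancers of the esophagus.

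The libraries held from 52072801 to 63975313 reads counted to genes, and mitochondrial transcripts took 1.85% to 2.05% of them in KYSE70 and 2.26% to 2.29% in NRF2null-KYSE70. Values below are normalized counts, that is, reads per gene divided by a size factor for each library. All 15 squamous and epithelial genes examined, among them KRT5, TP63 and SOX2, were expressed in both lines, with summed normalized counts from 453199 to 469438 in KYSE70 and from 375377 to 401809 in NRF2null-KYSE70. By the test described below, 10 of them were higher and 4 lower in NRF2null-KYSE70, beside 29.3% and 28.3% of all tested genes. The largest log2 fold changes among the 15 were 1.74 for KRT14, -0.92 for TP63 and 0.90 for ITGA6. KRT14 was low, with 38.2, 34.5 and 66.4 normalized counts in KYSE70 and 140, 112 and 217 in NRF2null-KYSE70. Of 16 markers of mesenchymal cells, endothelium and blood cells, 9 had a mean under 1, of which 4 were at 0 in every library, 3 were called higher and 2 lower, and their sum lay between 1658 and 1887 in KYSE70 and between 1030 and 1386 in NRF2null-KYSE70. The leukocyte gene PTPRC, which was at 0, 0 and 1.05 in KYSE70 and at 42.6, 40.2 and 47.9 in NRF2null-KYSE70, and the collagen gene COL3A1, with 282, 212 and 276 against 7.10, 6.86 and 11.4, had the largest fold changes among the 5 markers of this list that passed the filter on low values, followed by VWF of endothelium at 1.28 on the log2 scale. Other mesenchymal markers went either way, with COL1A1 lower at -1.16 and VIM higher at 1.2015 on the log2 scale. PDGFRB, below the filter, was at 0 in each KYSE70 library and at 12.2, 14.7 and 15.98 in NRF2null-KYSE70. CD3E of T lymphocytes and PECAM1 and CDH5 of endothelium had a mean under 1 in both lines. The part of these markers and of the mitochondrial share in the results below was not tested.

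The cut that made NRF2null-KYSE70 is the starting point of the comparison. The guide matched chromosome 2 at 1 place, on the minus strand at chr2:177234191-177234210 (hg38), inside exon 2 of the 5 exons of the canonical NFE2L2 transcript. The reference sequence of this site is shown because every result rests on it, read in the direction of the gene over chr2:177234168-177234230, with the 20 bases matched by the guide and the adjoining CGG motif required by Cas9 in capitals.
NFE2L2 target site: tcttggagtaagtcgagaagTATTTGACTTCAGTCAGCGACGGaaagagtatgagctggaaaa
Cas9 cuts 3 bases inside the matched stretch, which is after base 123 of the 1815 coding bases, at the end of codon 41. The region of NRF2 that KEAP1 grips is encoded around this place. The site lay in an exon of 64 of the 65 annotated NFE2L2 transcripts. This counts annotated transcripts and not their expression. By RT-PCR, the paper reports that a transcript missed by the guide is expressed in NRF2null-KYSE70. The deposited counts are sums over the whole gene, so reads of edited and intact transcripts, and of different isoforms, cannot be told apart in them.

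Of the 10 genes, 9 reached the mean normalized count of 10 needed for testing, and NFE2 did not. Each line was compared over its 3 libraries by limma on log2(normalized count + 1), with Benjamini-Hochberg adjustment over the 15994 genes tested. All 9 tested genes had an adjusted p under 0.05, 5 of them higher and 4 lower in NRF2null-KYSE70. These counts stand beside a background in which 57.6% of all tested genes were called, 29.3% as higher and 28.3% as lower. With the further requirement of a log2 fold change of 1 or more in size, 2 of the 9 genes were called, MAFF and NFE2L3, both higher, beside 14.7% of all tested genes, of which 7.23% of tested genes were higher and 7.43% lower. For each of the 9 tested genes the libraries of the lines were fully apart, as for 63.4% of all tested genes. The median log2 fold change of the 9 genes was 0.37, beside -0.01 over all tested genes.

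**Figure D1:**
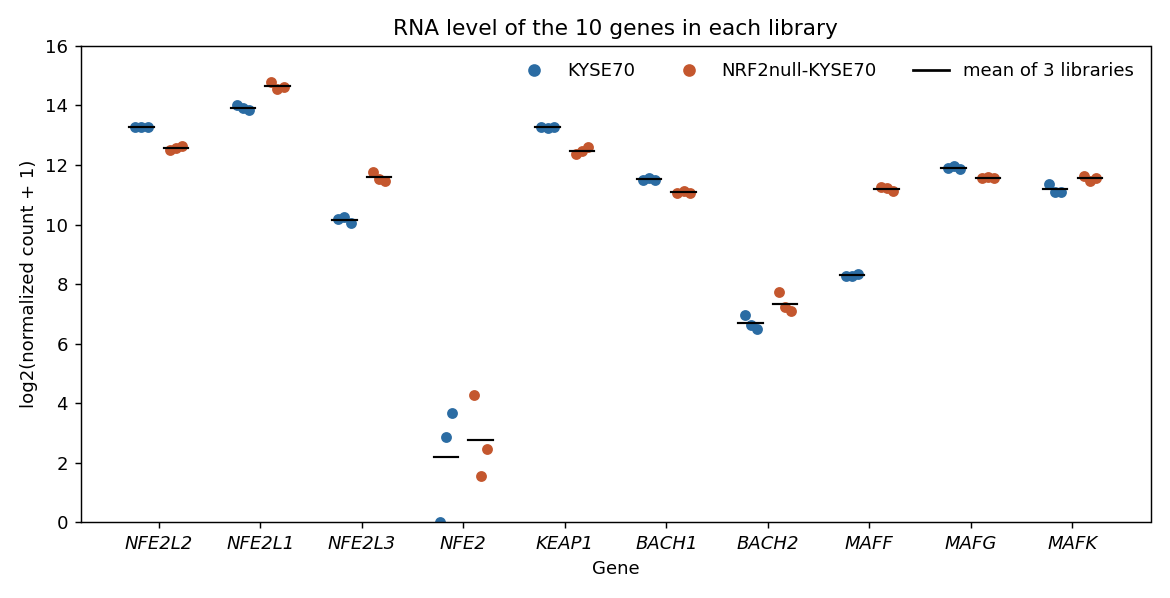
RNA level of each of the 10 genes on the log2(normalized count + 1) scale (vertical axis) in the 3 KYSE70 libraries (blue) and the 3 NRF2null-KYSE70 libraries (orange), with black bars at the means. The 2 lines do not overlap for 9 genes, the widest gap is that of MAFF, and the NFE2 points of the lines overlap near the bottom of the axis.

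Among the activators, the edited gene kept most of its RNA while its relatives NFE2L1 and NFE2L3 stood higher in NRF2null-KYSE70. NFE2L2 (ENSG00000116044, chr2:177218667-177392756, minus strand) had 9839, 9906 and 10039.8 normalized counts in the KYSE70 libraries and 5803, 6041 and 6434 in those of NRF2null-KYSE70. Every NRF2null-KYSE70 library was thus below every KYSE70 library, and the mean was 61.4% of that in KYSE70. The change was -0.71 on the log2 scale (95% interval -0.81 to -0.60, limma adjusted p = 9.37e-08). In bulk RNA, fewer cells with a transcript and less transcript per cell cannot be told apart.

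NFE2L1 (ENSG00000082641, chr17:48048329-48061545, plus strand), a CNC factor anchored in the endoplasmic reticulum that drives proteasome genes when it is released, was the most abundant of the 10 by normalized count in both lines. It had 16542, 15412 and 14638.5 normalized counts in KYSE70 and 28557, 24067 and 24957.5 in NRF2null-KYSE70. The lowest NRF2null-KYSE70 library was above the highest KYSE70 library, and the mean was 1.67-fold higher in NRF2null-KYSE70. This was a log2 fold change of 0.73 (95% interval 0.59 to 0.88, limma adjusted p = 9.54e-07).

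NFE2L3 (ENSG00000050344, chr7:26152198-26187137, plus strand), a less studied relative that is also processed in the endoplasmic reticulum, had 1172, 1207 and 1057 normalized counts in KYSE70. It had 3497, 2968 and 2828 in NRF2null-KYSE70. The groups were well apart, with a mean 2.70-fold higher in NRF2null-KYSE70, a log2 fold change of 1.43 (95% interval 1.25 to 1.61) and a limma adjusted p of 1.83e-08. By size it stood at place 770 among the rises of all tested genes. NFE2 (ENSG00000123405, chr12:54292111-54301015, minus strand), the subunit known from blood platelets and red cell precursors, was barely detected. Its libraries held 0, 6.35 and 11.6 normalized counts in KYSE70 and 18.3, 1.96 and 4.57 in NRF2null-KYSE70, from 18 and 24 reads in all. The lines overlapped, and in a fit without the filter on low values it differed by 0.59 on the log2 scale (SE 0.960, limma adjusted p = 0.658), so a difference was not detectable at this depth.

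KEAP1 (ENSG00000079999, chr19:10486125-10503558, minus strand), the adaptor that brings NRF2 to the CUL3 ligase, was also lower in NRF2null-KYSE70. It had 9915, 9695 and 9891 normalized counts in KYSE70 and 5349, 5626 and 6213 in NRF2null-KYSE70. The groups did not overlap, and 58.3% of the parental level was left. This was a log2 fold change of -0.78 (95% interval -0.90 to -0.66, limma adjusted p = 1.2e-07). This was the largest fall among the 9 tested genes, and 1923 tested genes fell further. The log2 ratio of KEAP1 to NFE2L2 normalized counts was 0.01, -0.03 and -0.02 in KYSE70 and -0.12, -0.10 and -0.05 in NRF2null-KYSE70. The ratio was therefore lower in each NRF2null-KYSE70 library, by 0.08 on the log2 scale on average (-0.01 ± 0.022 against -0.09 ± 0.035, SD, n = 3 per line). An exact two-sided permutation test gave p = 0.1, the smallest that 3 libraries against 3 allow, and 0.1 after adjustment over the 3 ratios compared.

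The repressors differed from each other in direction. BACH1 (ENSG00000156273, chr21:29194071-29630751, plus strand), the heme-sensing repressor of genes such as HMOX1, had 2912, 3012 and 2876 normalized counts in KYSE70 and 2135, 2249 and 2148 in NRF2null-KYSE70. All NRF2null-KYSE70 libraries were below all KYSE70 libraries, at 74.2% of the parental mean. The log2 fold change was -0.43 (95% interval -0.55 to -0.31, limma adjusted p = 2.14e-05). The gene lies on 21q, whose protein-coding genes had a median log2 fold change of 0.27, and after subtraction of the median of each chromosome arm its value was -0.70. The median was lower close to the gene, at 0.04 over its 36 nearest tested protein-coding genes. The log2 ratio of BACH1 to NFE2L2 normalized counts was -1.76, -1.72 and -1.80 in KYSE70 and -1.44, -1.43 and -1.58 in NRF2null-KYSE70. BACH1 was thus nearer to NFE2L2 in every NRF2null-KYSE70 library, by 0.28 on the log2 scale (-1.76 ± 0.043 against -1.48 ± 0.086, SD, n = 3 per line, exact permutation p = 0.1, adjusted 0.1).

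BACH2 (ENSG00000112182, chr6:89926528-90296843, minus strand), best known as a repressor in B and T lymphocytes, was expressed at a low level. It had 125, 97.1 and 89.6 normalized counts in KYSE70 and 211, 149 and 135 in NRF2null-KYSE70. The lowest NRF2null-KYSE70 library was close above the highest KYSE70 library. The log2 fold change was 0.65 with a wide 95% interval of 0.19 to 1.11 (limma adjusted p = 0.0196). This call was lost without KYSE70 library 2 (limma adjusted p = 0.0638), without KYSE70 library 3 (0.069), without NRF2null-KYSE70 library 1 (0.0936, log2 fold change 0.46) and after arm-centring (0.064).

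The small MAF genes changed unequally. MAFF (ENSG00000185022, chr22:38200767-38216507, plus strand), which is known to be induced by stress and inflammatory signals, was the gene with the largest change of the 9. It had 309, 309 and 323 normalized counts in KYSE70 and 2472, 2399 and 2235 in NRF2null-KYSE70. The spread within each line was small beside the gap between them, and the mean was 7.55-fold higher in NRF2null-KYSE70. This was a log2 fold change of 2.91 (95% interval 2.74 to 3.08, limma adjusted p = 1.65e-11). Among all tested genes, 214 rose further.

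MAFG (ENSG00000197063, chr17:81918270-81927735, minus strand), an NRF2 partner that is itself known as an NRF2 target, had 3827, 4029 and 3719 normalized counts in KYSE70 and 3059, 3063 and 2996 in NRF2null-KYSE70. It was lower in every NRF2null-KYSE70 library, at 78.8% of the parental mean, with a log2 fold change of -0.34 (95% interval -0.46 to -0.23, limma adjusted p = 9.97e-05). MAFK (ENSG00000198517, chr7:1530702-1543043, plus strand), the partner first described with NFE2 in blood cells, had 2637, 2195 and 2174 normalized counts in KYSE70 and 3185, 2796 and 3045 in NRF2null-KYSE70. The gap between the highest KYSE70 library and the lowest NRF2null-KYSE70 library was narrow, and the log2 fold change reached 0.37 (95% interval 0.20 to 0.54, limma adjusted p = 0.00145).

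To set the levels of the small MAF genes against each other, normalized counts were divided by the length of all annotated exons of each gene. These exons are those of the GENCODE v44 annotation and may differ from the exons used in counting. On this scale of normalized counts per kb of exon, the summed level of MAFF, MAFG and MAFK was 1375, 1315 and 1254 in KYSE70 and 1737, 1637 and 1651 in NRF2null-KYSE70. The sum was higher in each NRF2null-KYSE70 library. MAFG supplied 53.1%, 58.5% and 56.6% of it in KYSE70 and 33.6%, 35.7% and 34.6% in NRF2null-KYSE70. This share of 56.1% ± 2.73 fell to 34.6% ± 1.04 (SD, n = 3 per line), a difference of -21.4 percentage points (exact two-sided permutation p = 0.1, the smallest possible, adjusted 0.1). MAFF made up 4.26% ± 0.295 of the sum in KYSE70 and 25.2% ± 1.00 in NRF2null-KYSE70, whereas the share of MAFK was 39.7% ± 2.88 and 40.2% ± 1.70 (SD, n = 3 per line). With the length of the canonical transcript in place of all exons, the MAFG share went from 48.1% to 24.2%, the MAFF share from 8.36% to 40.1% and the MAFK share from 43.5% to 35.8%, with the libraries of the lines apart for MAFK on this scale only.

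**Figure D2:**
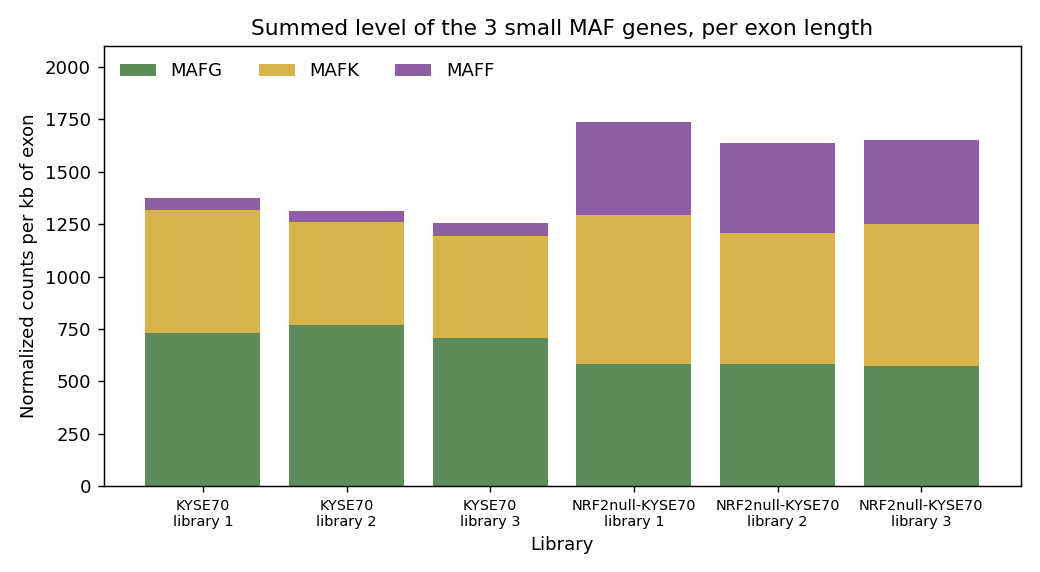
Summed level of MAFG (green), MAFK (yellow) and MAFF (purple) in normalized counts per kb of exon (vertical axis, from 0) for each of the 6 libraries (horizontal axis). The stacks reach 1254 to 1375 in KYSE70 and 1637 to 1737 in NRF2null-KYSE70, and the purple part is a thin band in KYSE70 and 25.2% of the stack on average in NRF2null-KYSE70.

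The order of the 10 levels on the same per kb scale was KEAP1, NFE2L1, MAFG, NFE2L2, MAFK, BACH1, NFE2L3, MAFF, BACH2 and NFE2 in KYSE70. KEAP1 (2752 ± 33.8, SD, n = 3) and NFE2L1 (2640 ± 163, SD, n = 3) overlapped, and the libraries of all other neighbours in this order did not. In NRF2null-KYSE70 it was NFE2L1, KEAP1, NFE2L3, MAFK, MAFG, MAFF, NFE2L2, BACH1, BACH2 and NFE2. NFE2L3 (719.9 ± 82.0, SD, n = 3) overlapped with MAFK (673 ± 44.1), and MAFF (422 ± 21.6) with NFE2L2 (407 ± 21.3). The place of NFE2L2 depends on the length used, because long minor isoforms give it 14975 bases of annotated exon against 2446 in the canonical transcript. With canonical lengths, NFE2L2 had the highest level of the 10 in KYSE70, 4059 normalized counts per kb beside 3834 for KEAP1 and 3209 for NFE2L1, and 2491 in NRF2null-KYSE70 beside 5344 for NFE2L1 and 2234 for KEAP1. Among the 4 activators, NFE2L2 made up 53.6% of the summed level in KYSE70 and 28.8% in NRF2null-KYSE70 by canonical length, and 18.6% and 7.41% by the length of all exons. The share of NFE2L1 was higher in NRF2null-KYSE70 by either length, at 61.6% after 42.3% and at 79.5% after 73.9%.

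Because a clone can differ from its parental line over stretches of a chromosome, each gene was set beside the 20 nearest tested protein-coding genes on either side, or as many as the chromosome end allowed, which gave 36 neighbours for BACH1, 34 for MAFK and 40 for each of the others. The medians of these neighbours lay between -0.10 for MAFG and 0.16 for MAFF in the case of the 9 tested genes. None of the 40 neighbours of MAFF had an absolute log2 fold change as large as its own, and 1 of those of NFE2L3 did. The numbers were 5 for KEAP1, 5 for NFE2L1, 6 for NFE2L2, 6 for BACH2, 8 of 34 for MAFK, 11 of 36 for BACH1 and 17 of 40 for MAFG, so the fall of MAFG was of a size that was common around it. The untested NFE2 lies on 12q, where the 40 neighbours had a median of -0.57 and 33 of them were called lower.

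**Figure D3:**
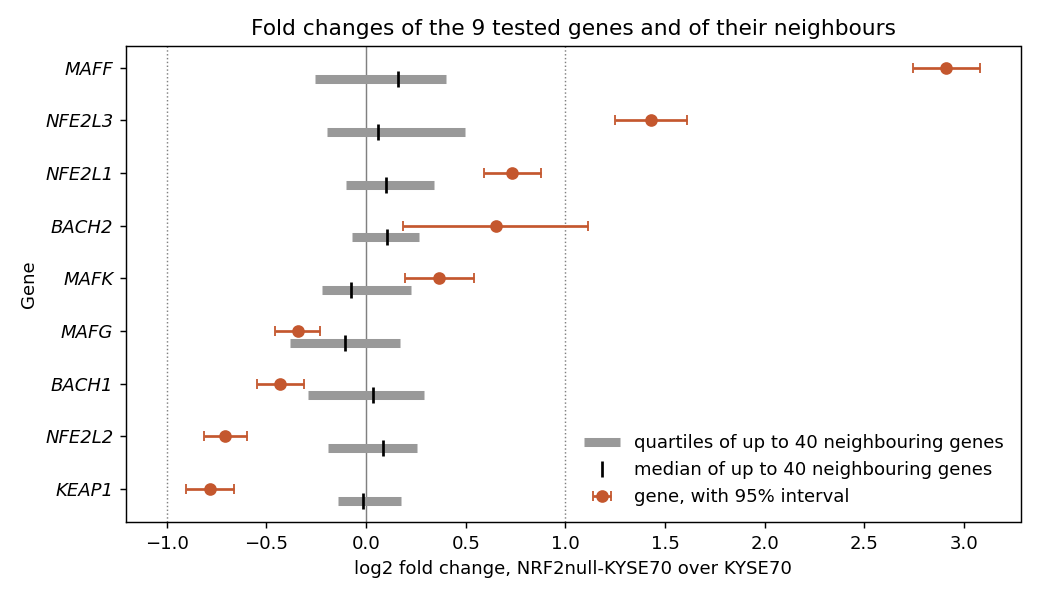
Log2 fold change, NRF2null-KYSE70 over KYSE70 (horizontal axis), of the 9 tested genes (orange points, bars for the 95% interval), with the quartiles (grey) and median (black tick) of up to 40 neighbouring genes drawn just below each. MAFF at 2.91 and NFE2L3 at 1.43 lie beyond the dotted line at 1, and KEAP1, NFE2L2 and BACH1 lie below the grey bars of their neighbours.

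**Figure D4:**
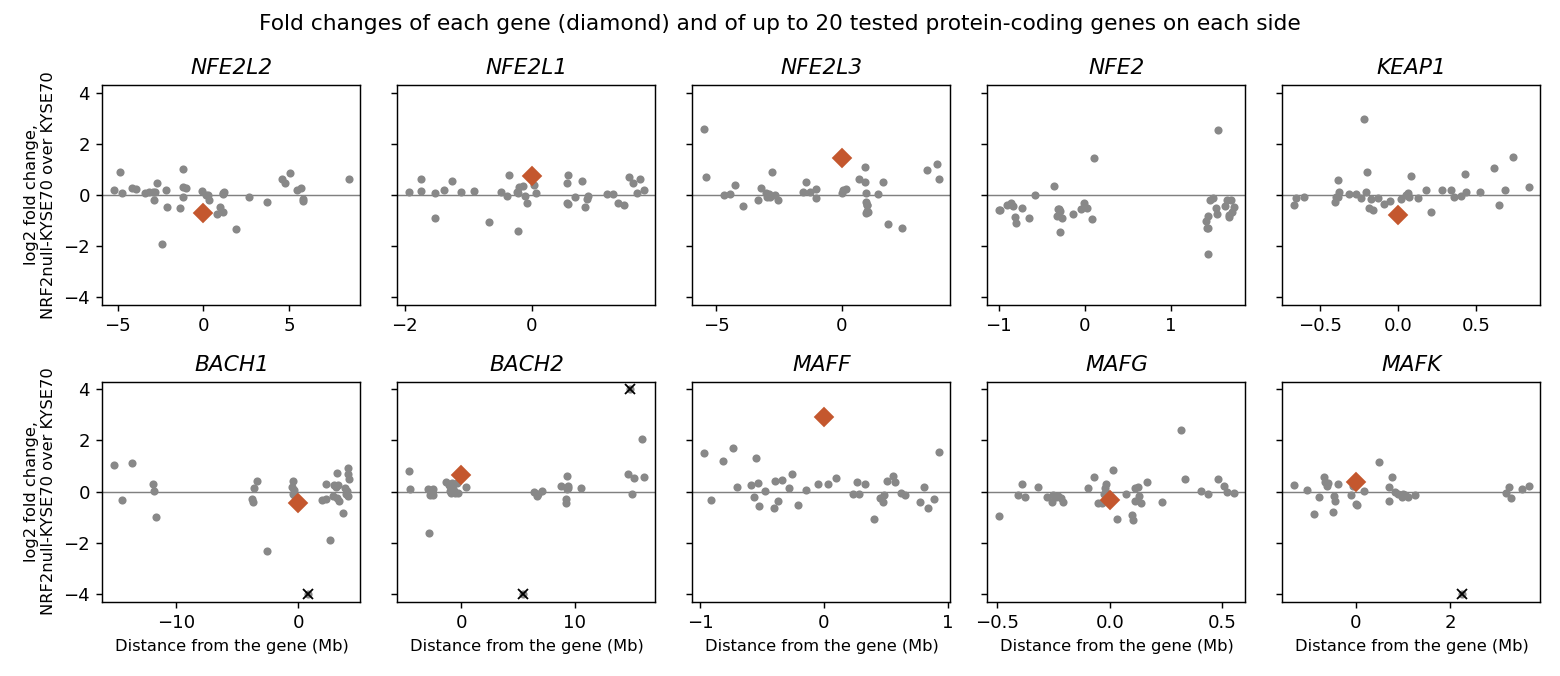
Log2 fold change (vertical axis) against distance in Mb (horizontal axis) for up to 20 of the nearest tested protein-coding genes on each side (grey) of each of the 10 genes (diamond, absent for the untested NFE2), with values beyond 4 drawn as crosses at 4. Most grey points around NFE2 lie below 0, and the diamond of MAFF lies above all 40 of its neighbours.

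In the GENCODE v44 annotation, several of the 10 genes share exon sequence with another gene. Whether the counting used strand is not stated, and the exons it used may differ from these. Exons of HNRNPA3 on the other strand cover 3509 bases of annotated NFE2L2 exon, and its log2 fold change was 0.15 (limma adjusted p = 0.0549). Its mean was 29003 normalized counts beside 8010 for NFE2L2. HNRNPA2B1, on the other strand, shares 1207 bases with NFE2L3 and had a mean of 93903 normalized counts beside 2122 for NFE2L3. Its log2 fold change was 0.06 (limma adjusted p = 0.402), against 1.43 for NFE2L3. The noncoding gene ENSG00000213963 shares 2037 bases with NFE2L2 on the same strand and had a log2 fold change of -0.40 (limma adjusted p = 0.099), at a mean of 132 normalized counts. PLA2G6 shares 326 bases with MAFF and had one of 0.31 (0.0271). TMEM184A shares 809 bases with MAFK and went the other way, with -0.47 (3.1e-05), and SIRT7 shares 105 bases with MAFG and had one of -0.09 (0.387). The noncoding gene ENSG00000264769 on the other strand shares 224 bases with MAFG and was also lower, by a log2 fold change of -1.63 (limma adjusted p = 0.000925), at a mean of 117 normalized counts beside 3449 for MAFG.

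Promoter sequences from RefSeq (GRCh38.p14, 250 bases before to 50 after a start) were found for 8 of the 10 genes, in 14 windows, and there was no entry for NFE2 or MAFK. They were searched on both strands for TGACNNNGC, the core of the antioxidant response element, for TGAGTCA, the element of AP-1 factors, and for TGCTGA, the outer part of the MAF recognition element. TGACNNNGC was found in 13.3% of all 35116 windows of this length, TGAGTCA in 4.95% and TGCTGA in 17.3%. Among the 8 genes, TGACNNNGC was present in KEAP1 and MAFF, and TGAGTCA in BACH1. TGCTGA was present in NFE2L1, NFE2L3, BACH1 and BACH2, and no motif overlapped another. TGACNNNGC, TGAGTCA and TGCTGA were thus in 2, 1 and 4 of the 14 windows, the unit in which the background was counted. For TGACNNNGC this is near the 13.3% of all windows. None of the letters searched was in the windows of NFE2L2 or MAFG. KEAP1 and MAFF each also had a window with no match. The windows of KEAP1 and MAFF with TGACNNNGC are shown, since these were the genes with the largest fall and the largest rise, 5′ to 3′ in the direction of the gene and with the matches in capitals. The KEAP1 window is chr19:10502722-10503021 on the minus strand, with matches that begin 54 and 31 bases before its start, and the MAFF window is chr22:38201744-38202043 on the plus strand, with a match that begins 122 bases before its start.
KEAP1: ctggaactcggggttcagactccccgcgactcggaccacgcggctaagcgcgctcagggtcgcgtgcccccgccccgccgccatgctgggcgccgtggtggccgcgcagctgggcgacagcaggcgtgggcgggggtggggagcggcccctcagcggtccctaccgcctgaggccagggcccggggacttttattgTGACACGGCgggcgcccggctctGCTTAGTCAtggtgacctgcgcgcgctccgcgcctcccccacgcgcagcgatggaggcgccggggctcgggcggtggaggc
MAFF: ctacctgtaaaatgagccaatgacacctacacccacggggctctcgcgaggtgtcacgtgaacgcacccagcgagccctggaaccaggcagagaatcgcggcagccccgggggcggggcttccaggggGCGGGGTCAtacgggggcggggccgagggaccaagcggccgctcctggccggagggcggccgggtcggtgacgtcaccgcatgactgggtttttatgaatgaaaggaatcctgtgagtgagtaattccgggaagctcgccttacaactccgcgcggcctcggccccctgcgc
A match of these letters describes the sequence and does not show a bound site.

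The genes that act on these factors were described by lists. The background for each list is the 29.3% of all tested genes called higher and the 28.3% called lower. Of 21 genes for NRF2 degradation and stabilisation, 6 were higher and 7 lower in NRF2null-KYSE70 by the same test, which is near this background. None changed by 1 or more on the log2 scale, and their median was 0.00. The count of lower genes was 4 in limma without the trend, without KYSE70 library 2 and without KYSE70 library 3, and 9 under quantile normalization, total scaling and arm-centring. CAND1, which exchanges adaptors on cullin ligases, had the largest change, with a log2 fold change of -0.63 (limma adjusted p = 1.03e-07) on 12q, where arm-centring left -0.25. DCAF11, a ligase adaptor reported to act on NRF2, and SYVN1, the ligase HRD1 of the endoplasmic reticulum, rose by 0.59 each. CUL3, the scaffold that KEAP1 uses, had 5889, 5549 and 5411 normalized counts in KYSE70 and 6850.5, 6331 and 6058 in NRF2null-KYSE70. This small rise of 0.19 (limma adjusted p = 0.0118) was lost under 6 of 18 alternatives. BTRC, an adaptor of the other NRF2 ligase, and SQSTM1, which sequesters KEAP1, had log2 fold changes of -0.07 and -0.03 and were not called (limma adjusted p = 0.271 and 0.559), although 2 and 3 of 18 alternatives called them lower. FBXW11, the paralog of BTRC, was called higher by 0.51 on the log2 scale (limma adjusted p = 1.17e-05). So was GSK3B, the kinase that marks NRF2 for the BTRC ligase, by 0.50 (3.41e-05). The median log2 fold change of protein-coding genes was 0.12 on 5q, where FBXW11 lies, and 0.28 on 3q, where GSK3B lies.

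The 9 genes for processing of NFE2L1 and NFE2L3 at the endoplasmic reticulum comprised 4 higher and 1 lower, beside 29.3% and 28.3% of all tested genes. Their median log2 fold change was 0.01. The lower count was 3 under quantile normalization and total scaling and 2 without NRF2null-KYSE70 library 1. SEL1L, the partner of HRD1, had 5004, 4669 and 4263 normalized counts in KYSE70 and 10151, 9319 and 9037 in NRF2null-KYSE70. Its groups were far apart, with a log2 fold change of 1.03 (limma adjusted p = 3.21e-08). FBXW7, a ligase adaptor for both factors, rose by 0.54. NGLY1, the enzyme that removes sugar chains from NFE2L1, had a log2 fold change of -0.55 (limma adjusted p = 4.47e-06), which became -0.07 (0.313) after arm-centring on 3p.

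Of 12 genes for BACH1 turnover and heme handling, 4 were higher and 7 lower, beside 29.3% and 28.3% of all tested genes. Their median log2 fold change was -0.21. In limma without the trend, 4 were lower. FBXO22, the ligase adaptor that removes BACH1, had 4440, 4672 and 4513 normalized counts in KYSE70 and 7499, 8008 and 7535 in NRF2null-KYSE70. It was higher in every NRF2null-KYSE70 library, with a log2 fold change of 0.76 (limma adjusted p = 4.37e-08) that became 0.43 after arm-centring on 15q. HMOX1, the heme oxygenase gene repressed by BACH1 and activated by NRF2, had 1417, 1154 and 1265 normalized counts in KYSE70 and 1495, 1645 and 1550 in NRF2null-KYSE70, a slightly higher level in each (log2 fold change 0.29, limma adjusted p = 0.00779). BLVRB, which reduces biliverdin, fell to 52.7% of the parental level, and the iron exporter gene SLC40A1 went from 56.0, 74.4 and 36.9 normalized counts to 1.01, 3.92 and 0.

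The large MAF factors bind the same kind of element and carry an activating region. MAF fell from 1057, 1100.3 and 1021 to 290.1, 304 and 405 normalized counts (log2 fold change -1.68, limma adjusted p = 1.24e-07). MAFA rose from 410.0, 319 and 352 to 495, 571 and 664 (limma adjusted p = 0.000732). The log2 fold change of MAFA, 0.67, became 0.41 after arm-centring. Small and large MAF genes thus included members that moved in either direction.

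Among 9 coactivators and chromatin partners of CNC factors, 1 was higher and 4 lower, beside 29.3% and 28.3% of all tested genes. Their median log2 fold change was -0.14. NCOA3, a coactivator, had a log2 fold change of -0.86, and CHD6, a chromatin remodeler, one of -0.52. NCOA3 and CHD6 lie on 20q and had -0.61 and -0.27 after arm-centring. Of 30 NRF2 target genes, 26 were lower and 2 higher around a median log2 fold change of -0.93. Of those that fell, 14 passed the cut-off of 1, beside 7.43% of all tested genes. With a filter at a mean of 50, or in limma without the trend, 1 was higher. HMOX1, which NRF2 also activates and which was called higher above, stood in the heme list and is not among the 30. CYP4F11, a fatty acid hydroxylase, and AKR1B10, an aldo-keto reductase, had the largest falls, to 1.499% and 3.26% of the parental level. CBR1, a carbonyl reductase, had the largest rise, 2.79 on the log2 scale (limma adjusted p = 0.00816), on few reads, with 0.889, 3.63 and 16.9 normalized counts in KYSE70 and 16.2, 69.6 and 41.1 in NRF2null-KYSE70. Its groups overlapped, and its call was lost in limma without the trend (adjusted p = 0.0588). ABCC2, the other target called higher, had 414, 454 and 404 normalized counts in KYSE70 and 986, 851 and 872 in NRF2null-KYSE70. The groups of ABCC2 did not overlap, and its log2 fold change was 1.09 (limma adjusted p = 7.8e-07).

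**Figure D5:**
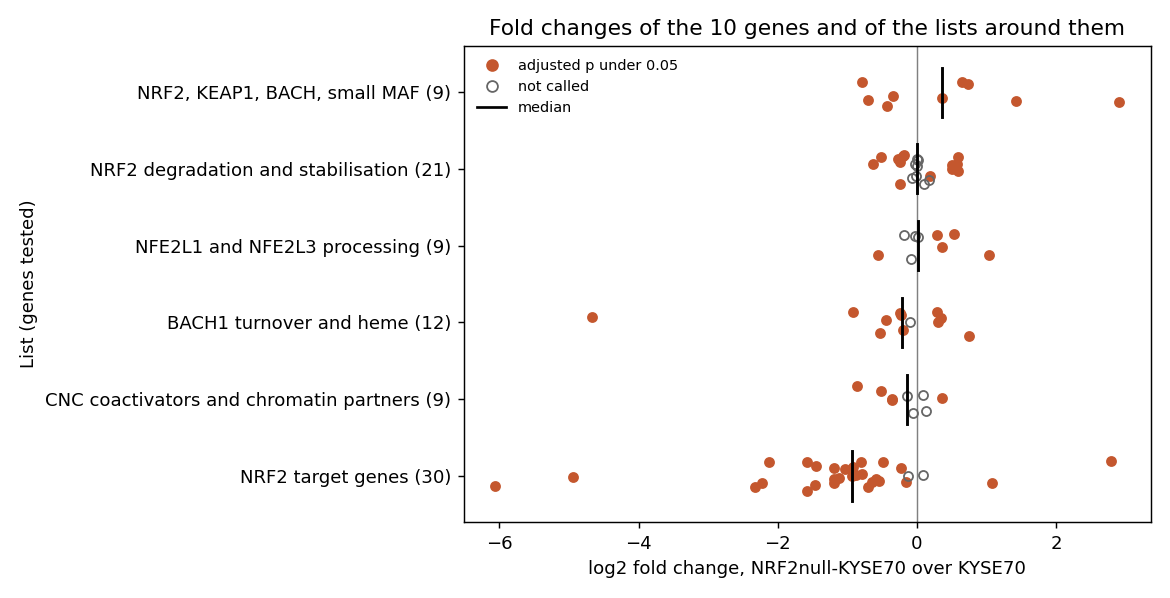
Log2 fold changes, NRF2null-KYSE70 over KYSE70 (horizontal axis), of the 9 tested genes and of 5 lists of related genes (rows, with the number of genes tested), filled where the limma adjusted p was under 0.05 and with a black bar at the median. The NRF2 target genes have a median of -0.93, and the lists for degradation and processing have medians near 0.

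The genes whose pattern over the 6 libraries was nearest to NFE2L2 and KEAP1 were sought among 11996 others with a mean of at least 100, by the Euclidean distance between log2 values centred on each gene's own mean. The nearest to NFE2L2 were PPT1 (distance 0.0606), IFT46, UQCC1, TRMT1L and ZNF205 (0.0804), with log2 fold changes from -0.74 to -0.66. Among the nearest to KEAP1 were CRIP2 (distance 0.0593), ZNF174, MYL6B and SLC2A8 (0.0867), with log2 fold changes from -0.82 to -0.75. All points share the same 6 libraries, and genes with a fold change of like size lie near each other by construction.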

How the data were processed

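Total RNA of untreated KYSE70 and NRF2null-KYSE70 cells (3 libraries each) was sequenced by the authors. Per the labels, reads were checked with FastQC 0.11.5 and trimmed with cutadapt 1.12, aligned with STAR 2.6.90c and counted per gene with featureCounts 1.5.1, on hg38. The deposited values are a signal, read counts per gene divided by a DESeq2 size factor for each library. Replicates were not pooled. Strand use in counting is not given in the sources used here. Columns carry the line only, so libraries are numbered by their order in the table. Whole reads were recovered from the deposited counts (100% of values whole within 0.01, between 0.889 and 1.14 normalized counts for 1 read).

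Genes with a mean of at least 10 were tested with limma 3.58.1 (R 4.3.3, eBayes with trend, two-sided) on log2(value + 1), which understates changes of low genes, over all 6 libraries. Ratios were tested by exact permutation. Alternatives were other pseudocounts (0.1 and 5), filters (none and 50) and scalings, limma without trend or with robust eBayes, DESeq2 1.42.0 and edgeR 4.0.16 on the recovered reads, leave-one-out fits and arm-centring (subtraction of the median of protein-coding genes on the arm). Positions and exon lengths came from GENCODE v44 (58472 of 58884 identifiers found). The paper names a RefSeq annotation for its alignment, while the rows carry Ensembl identifiers. The exons used in counting may therefore differ from those used here for lengths and overlaps. The script was tested on simulated data. The 10 genes and all lists were chosen with earlier results of these data known. Named besides the 10 were the 3 genes with the largest change in each list, HMOX1, CUL3, SQSTM1, FBXO22 and BTRC, and the 5 nearest to NFE2L2 and KEAP1, except a few that are not reported here. Overlapping genes and the markers CD3E, PECAM1, CDH5, VIM, PDGFRB, COL1A1, KRT5 and SOX2 were named after their values were seen. So were FBXW11, GSK3B and ABCC2.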

Additional observations from a re-analysis of the deposited data

How the results depend on the processing

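All 9 tested genes kept their direction under the 18 alternatives run for each, and 8 of them kept an adjusted p under 0.05, with BACH2 the exception (adjusted p from 0.00907 to 0.0936, lost in 4). The count of called genes among the 9 was 8 or 9 across the leave-one-out fits, and 8 after arm-centring. MAFF and NFE2L3 were the 2 genes past an absolute log2 fold change of 1 in each alternative, with values from 2.84 to 2.95 and from 1.3404 to 1.49. NFE2L2 ranged from -0.80 to -0.67 and KEAP1 from -0.88 to -0.73. The count of all tested genes past both thresholds, 2344, was 1511 with a filter at a mean of 50, which tested 13004 genes, and lay between 8159 and 9345 for the adjusted p alone. The 3 ratios kept their direction under each alternative, but with 1 library left out their permutation p cannot go below 0.2. Scaling to the library total moved the median gene by -0.08 (log2). No paired analysis was possible because column names give the line and nothing that numbers its libraries. Depth limits NFE2, with 18 and 24 reads in all, and to a lesser degree BACH2.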
